A study of Mus musculus with 5 samples.

Results

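The genes described here are 7 genes that mark entry into the red cell lineage: Car1, Car2, Ermap, Blvrb, Epor, Aqp1 and Mfsd2b. They were taken by symbol, and all 7 were found among the 55450 genes of the deposited count matrices. The study sorted progenitors from the bone marrow of wild-type Balb/C mice 8 to 12 weeks of age and profiled them by droplet single-cell RNA sequencing (10x Genomics 3′ chemistry, version 3) in 5 libraries. All sorted cells had been enriched for c-Kit and were negative for a lineage cocktail that includes Ter-119, so late erythroid cells carrying that antigen were gated out of every group. CMP, the common myeloid progenitor (negative for Sca-1, positive for CD34, low for CD16/32), has 1 library. LMPP, the lymphoid-primed multipotent progenitor (positive for Sca-1, CD34 and Flt3), also has 1. GMP, the granulocyte-monocyte progenitor (negative for Sca-1, positive for CD34, high for CD16/32), has 3 libraries, described as biological replicates without a statement on separate or pooled animals.

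Red cell formation starts when a progenitor raises the transcription factor GATA-1 with its partner KLF1. The erythropoietin receptor, encoded by Epor, then gives survival and growth signals through JAK2 and STAT5. Car1 and Car2 encode cytosolic carbonic anhydrases, which interconvert carbon dioxide and bicarbonate. Ermap encodes a membrane protein of erythroblasts that carries the Scianna blood group in humans, and Aqp1 encodes a water channel of the red cell membrane. Blvrb encodes biliverdin reductase B, a flavin and biliverdin reductase, and Mfsd2b encodes the exporter of sphingosine 1-phosphate in red cells and platelets.

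On the mm10 build with GENCODE M21 gene models, Car1 lies on the minus strand of chr3:14766216-14808368 and Car2 on the plus strand nearby, at chr3:14886273-14900770. Their transcripts share no exact run longer than 15 bases. Car1 overlaps the predicted gene Gm16399 on the same strand, and reads from the overlap could not be told apart here. Ermap lies on the minus strand of chr4:119175457-119190011 and Blvrb on the plus strand of chr7:27447978-27466144. Epor lies on the minus strand of chr9:21958897-21963506, Aqp1 on the plus strand of chr6:55336432-55348555 and Mfsd2b on the minus strand of chr12:4862440-4874359. None of those 5 genes overlaps another gene model.

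RefSeq promoter windows (GRCm38.p6, 250 bases before to 50 after a start site) were at hand for 5 of the 7 genes, in 6 windows. They are shown for Epor and Ermap, which each hold a GATA motif near the start site, and for Mfsd2b, which holds none. Capitals mark matches, on either strand, to a GATA motif (the letters AGATAA, the letters AGATAG, the letters TGATAA and the letters TGATAG) or to a KLF motif (CCNCNCCC). Each line reads 5′ to 3′ on the strand of the gene.
Epor, chr9:21963527-21963826, minus strand: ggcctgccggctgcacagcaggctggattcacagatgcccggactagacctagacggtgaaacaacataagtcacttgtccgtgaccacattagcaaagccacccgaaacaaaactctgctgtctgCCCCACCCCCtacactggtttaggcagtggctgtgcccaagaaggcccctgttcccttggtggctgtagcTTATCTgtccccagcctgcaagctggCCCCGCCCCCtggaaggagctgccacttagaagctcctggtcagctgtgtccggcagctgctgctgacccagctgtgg
Ermap, chr4:119189946-119190245, minus strand: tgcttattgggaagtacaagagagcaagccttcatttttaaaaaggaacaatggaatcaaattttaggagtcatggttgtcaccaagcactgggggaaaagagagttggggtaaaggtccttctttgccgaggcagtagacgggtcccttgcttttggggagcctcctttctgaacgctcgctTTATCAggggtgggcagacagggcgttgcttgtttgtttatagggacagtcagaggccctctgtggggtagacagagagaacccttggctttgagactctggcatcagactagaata
Mfsd2b, chr12:4874310-4874609, minus strand: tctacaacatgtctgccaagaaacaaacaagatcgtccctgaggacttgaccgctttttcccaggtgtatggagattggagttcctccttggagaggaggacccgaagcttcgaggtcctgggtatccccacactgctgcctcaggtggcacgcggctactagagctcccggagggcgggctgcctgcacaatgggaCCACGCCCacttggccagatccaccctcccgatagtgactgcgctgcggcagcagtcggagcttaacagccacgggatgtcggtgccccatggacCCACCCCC
The Epor window has a GATA match starting at -54 and KLF matches starting at -124, -122, -28 and -26, which overlap in pairs. The Ermap window has 1 GATA match, at -67, and no KLF match. The Mfsd2b window has KLF matches at -53 and 43, the Aqp1 window has 3, and of the Blvrb windows 1 has 6 KLF matches and the other 1 GATA match, at -196. Of all 32851 RefSeq windows of 300 bases, 29.8% hold a GATA match, 49.5% a KLF match and 10.2% both, so such matches are common and are given as a description of the letters.

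The libraries held between 7389 and 9993 barcodes and 90067195 to 137141095 UMIs (unique molecules). After filters on depth, mitochondrial share and doublet calls, there were 6880 CMP cells, 7511 LMPP cells and, in the GMP replicates, 8429, 9016 and 7334 cells. The median cell had 9296 to 15135 UMIs, depending on the library. Pairs of libraries shared 13 to 33 cell barcodes. RNA of Flt3 and of Fcgr3, which encodes CD16, was highest in the group gated as positive or high for the antigen. Flt3 was at 48.3 CPM (the usual CPM scale, which divides a gene's UMIs by all UMIs of its library) in CMP. It was at 127 CPM in LMPP and 3.99 to 4.82 CPM in the GMP libraries. Fcgr3 was at 10.1, 2.97 and 35.5 to 46.0 CPM in the same order. RNA of Kit and Cd34, antigens common to all gates, was not level: Kit was at 62.2, 147 and 37.9 to 47.8 CPM, and Cd34 at 266, 327 and 85.1 to 103 CPM. Fewer cells with a gene and less of its RNA per cell cannot be told apart in sums over a library, so shares of cells are given after the sums.

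**Figure D1:**
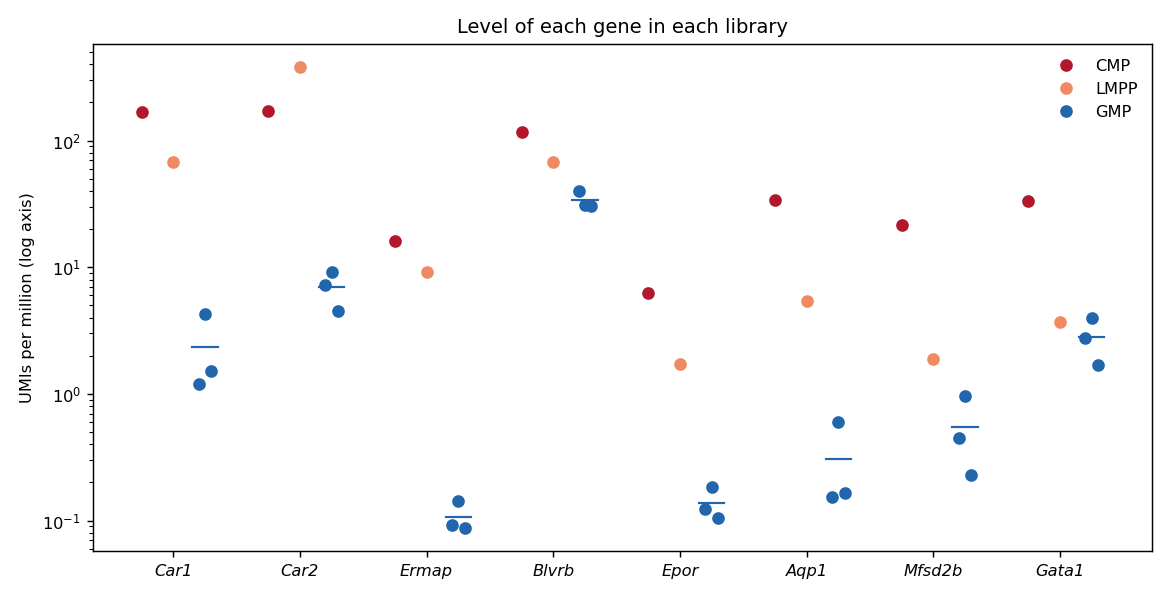
Level of the 7 genes and of Gata1 in each library, in CPM on a log axis. Each point is 1 library, and the bar is the mean of the 3 GMP libraries. The CMP point is above all GMP points for every gene, and Car2 is the 1 gene of the 7 whose LMPP point is above its CMP point.

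All 7 genes were higher in CMP than in GMP, and 6 of them had their highest level in CMP. Car2 alone was higher in LMPP than in CMP. Of the carbonic anhydrases, Car1 was at 169 CPM in CMP and 68.0 CPM in LMPP, against 1.19, 4.28 and 1.51 CPM in GMP replicates 1, 2 and 3. Car2 was at 171 CPM in CMP and 381 CPM in LMPP, against 7.19, 9.12 and 4.48 CPM in the GMP libraries. Both genes thus had every GMP library far below the other 2 populations, and GMP replicate 2 was the highest of its group.

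Of the membrane and transport genes, Ermap was at 16.1 CPM in CMP and 9.15 CPM in LMPP, against 0.0924, 0.143 and 0.0876 CPM in the GMP libraries. Aqp1 was at 34.1 CPM in CMP and 5.45 CPM in LMPP, against 0.154, 0.596 and 0.166 CPM in GMP. Mfsd2b was at 21.4 CPM in CMP and 1.89 CPM in LMPP, against 0.452, 0.966 and 0.228 CPM in GMP. The 3 genes kept the order CMP, LMPP, GMP with no overlap between libraries, and LMPP lay nearest to GMP for Mfsd2b.

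The receptor gene Epor was at 6.23 CPM in CMP (503 UMIs) and 1.74 CPM in LMPP (146 UMIs), against 0.123, 0.185 and 0.105 CPM in the GMP libraries (12, 22 and 12 UMIs). Blvrb, the reductase gene, was at 118 CPM in CMP and 67.9 CPM in LMPP, against 40.2, 31.1 and 30.4 CPM in GMP. Blvrb was thus the 1 member with sizeable RNA in all 3 populations. For comparison, Gata1 was at 33.4 CPM in CMP and 3.66 CPM in LMPP, against 2.76, 3.98 and 1.68 CPM in GMP, so that its LMPP value fell inside the GMP range.

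By the edgeR quasi-likelihood test on summed UMIs with Benjamini-Hochberg adjustment over 19735 genes, 7 of 7 genes rose in CMP over GMP, where 19.0% of all genes tested did. Only the GMP replicates give a spread here (2 residual degrees of freedom), and the test takes it to hold for the single CMP library and the single LMPP library too. Ermap had a log2 fold change of 6.69 ± 0.23 (SE, adjusted p = 6.28e-06) and Aqp1 one of 6.39 ± 0.46 (adjusted p = 7.08e-05). Car1 had 5.85 ± 0.51 (adjusted p = 0.00016), Epor 5.01 ± 0.29 (adjusted p = 3.06e-05), Mfsd2b 4.92 ± 0.48 (adjusted p = 0.00026) and Car2 4.31 ± 0.29 (adjusted p = 5.46e-05). Blvrb had the smallest change, 1.49 ± 0.19 (adjusted p = 0.000832). The median change over the 19735 genes was 0.04 on this scale.

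In LMPP over GMP, which shares the GMP libraries with the comparison above, 5 of 7 genes rose, where 31.6% of all genes tested did. These were Ermap (log2 fold change 5.57 ± 0.23, SE), Car2 (5.15 ± 0.30), Car1 (4.23 ± 0.50), Aqp1 (3.43 ± 0.47) and Epor (2.88 ± 0.30), with edgeR adjusted p-values from 4.91e-06 to 0.000629. Mfsd2b had 1.13 ± 0.54 (edgeR adjusted p = 0.106) and Blvrb 0.38 ± 0.19 (edgeR adjusted p = 0.129), and neither passed. Both calls depend on scaling. Scaled by total UMIs in place of TMM, which moved the median of all genes from 0.09 to 0.70, Mfsd2b had 1.74 (edgeR adjusted p = 0.0245) and Blvrb 1.0 (edgeR adjusted p = 0.0017). Mfsd2b also passed without GMP replicate 2 (log2 fold change 1.80, edgeR adjusted p = 1.81e-07), the replicate with its highest level, and without GMP replicate 3 (0.74, edgeR adjusted p = 0.0369). Blvrb passed without GMP replicate 1 (0.56, edgeR adjusted p = 0.00152).

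CMP and LMPP have 1 library each and were compared as a ratio with an exact 95% Poisson interval, which covers counting error only. Mfsd2b was 11.3 times as high in CMP as in LMPP (interval 9.62 to 13.4) and Aqp1 6.26 times (5.67 to 6.93). These 2 of 7 genes passed 4-fold, as 0.988% of the 18110 genes compared did. Epor was 3.59 times as high in CMP (2.98 to 4.34), Car1 2.48 times (2.41 to 2.56), Ermap 1.76 times (1.61 to 1.93) and Blvrb 1.74 times (1.68 to 1.80). Car2 had a ratio of 0.450 (0.441 to 0.459), that is, it was 2.22 times as high in LMPP. The median log2 ratio over all genes was -0.32 with total UMIs and -0.01 with TMM scaling, and with TMM scaling Car2 was still lower in CMP.

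To compare shares of cells at equal depth, every cell was thinned to 2000 UMIs. Car1 was then seen in 12.9% of 6831 CMP cells (95% Clopper-Pearson interval 12.1 to 13.7) and in 2.39% of 7449 LMPP cells, against 0.378% ± 0.203 of GMP cells (SD, n = 3). Car2 was seen in 27.2% of CMP and 49.3% of LMPP cells, against 1.52% ± 0.413 of GMP cells. Blvrb was seen in 17.9% of CMP and 9.50% of LMPP cells, against 7.19% ± 1.2 of GMP cells. The other 4 genes were seen in few cells at this depth: Aqp1 in 4.55% of CMP and 0.362% of LMPP cells, Mfsd2b in 4.14% and 0.107%, Ermap in 1.80% and 0.537%, and Epor in 1.13% and 0.107%. Without thinning, Epor had a UMI in 5.77% of CMP and 1.13% of LMPP cells.

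As a measure of free RNA, the 506 B cell-like cells of the CMP library, a class that should lack these genes, had a median of 11127.5 UMIs, against 10136 over all thinned CMP cells. Of these B cell-like cells, 2.37% had a Car1 UMI, 1.78% an Aqp1 UMI, 0.791% an Mfsd2b UMI, 0.198% an Epor UMI and 0 an Ermap UMI after the same thinning. The share for Car1 in LMPP cells (2.39%) was at the level of that in LMPP B cell-like cells, 1.5% (4 of 266), within counting error. Epor in LMPP (0.107%) was no higher than in LMPP B cell-like cells (1 of 266, 0.376%). With 266 such cells, neither share over all LMPP cells is told apart from background. The UMIs were not spread evenly, since 88.8% of Car1 and 77.4% of Epor UMIs in LMPP lay in 143 cells of 1 class, described next. In CMP the share was above the upper end of the interval in B cell-like cells for all 7 genes, such as 4.55% against an upper end of 3.35% for Aqp1 and 1.13% against 1.10% for Epor. The CMP interval for Epor (0.891 to 1.41) reached below that end, so Epor over all CMP cells is not clearly told apart from background.

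Most RNA of 5 of the genes came from a small part of the cells. Cells were clustered without the 7 genes, and 1 cluster with raised Gata1 and Klf1 was called erythroid-like. Its leading genes also include Pf4, a platelet chemokine gene of megakaryocytes, so it holds cells with megakaryocyte RNA as well. It held 1919 CMP cells (27.9%) and 143 LMPP cells (1.90%), against 52, 83 and 13 GMP cells. In CMP these cells carried 91.8% of the Car1 UMIs, 94.2% of those of Ermap, 89.7% of those of Aqp1, 88.3% of those of Epor and 87.6% of those of Mfsd2b. In LMPP, where they are 1.90% of cells, they carried 88.8% of the Car1, 90.2% of the Ermap, 82.5% of the Aqp1, 77.4% of the Epor and 74.8% of the Mfsd2b UMIs. Blvrb was less concentrated, with 69.1% in CMP and 36.9% in LMPP. Car2 was the exception, with 33.9% of its UMIs in the erythroid-like cells of CMP and 7.61% in those of LMPP.

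Within that class, Car1 was at 554 CPM in CMP and 1566 CPM in LMPP, against 146, 307 and 728 CPM in GMP. Ermap was at 54.3 CPM in CMP and 214 CPM in LMPP, against 4.49, 14.6 and 40.8 CPM in GMP. Epor was at 19.7 CPM in CMP and 34.9 CPM in LMPP, against 2.25, 4.18 and 6.80 CPM in GMP. So the few LMPP cells of this class were above CMP for these 3 genes, whereas Mfsd2b was at 67.2 CPM in CMP and 36.7 CPM in LMPP, against 38.2 to 50.2 CPM in GMP. Aqp1 was at 110 CPM in CMP and 117 CPM in LMPP, against 18.0 to 102 CPM in GMP. The 143 LMPP cells were deeper than their library, with a median of 15683 UMIs against 9356, and the part of doublets not called was not tested. With 13 to 83 cells per GMP library, these GMP levels rest on few UMIs (1 to 4 for Epor). The mix of cells may also differ between libraries. At Leiden resolution 2, a separate megakaryocyte-like cluster held 348 CMP and 38 LMPP cells, against 27, 46 and 6 GMP cells. The class used here held 1919 CMP and 143 LMPP cells, against 52, 83 and 13 GMP cells. The part of this mix in the levels above was not tested.

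**Figure D2:**
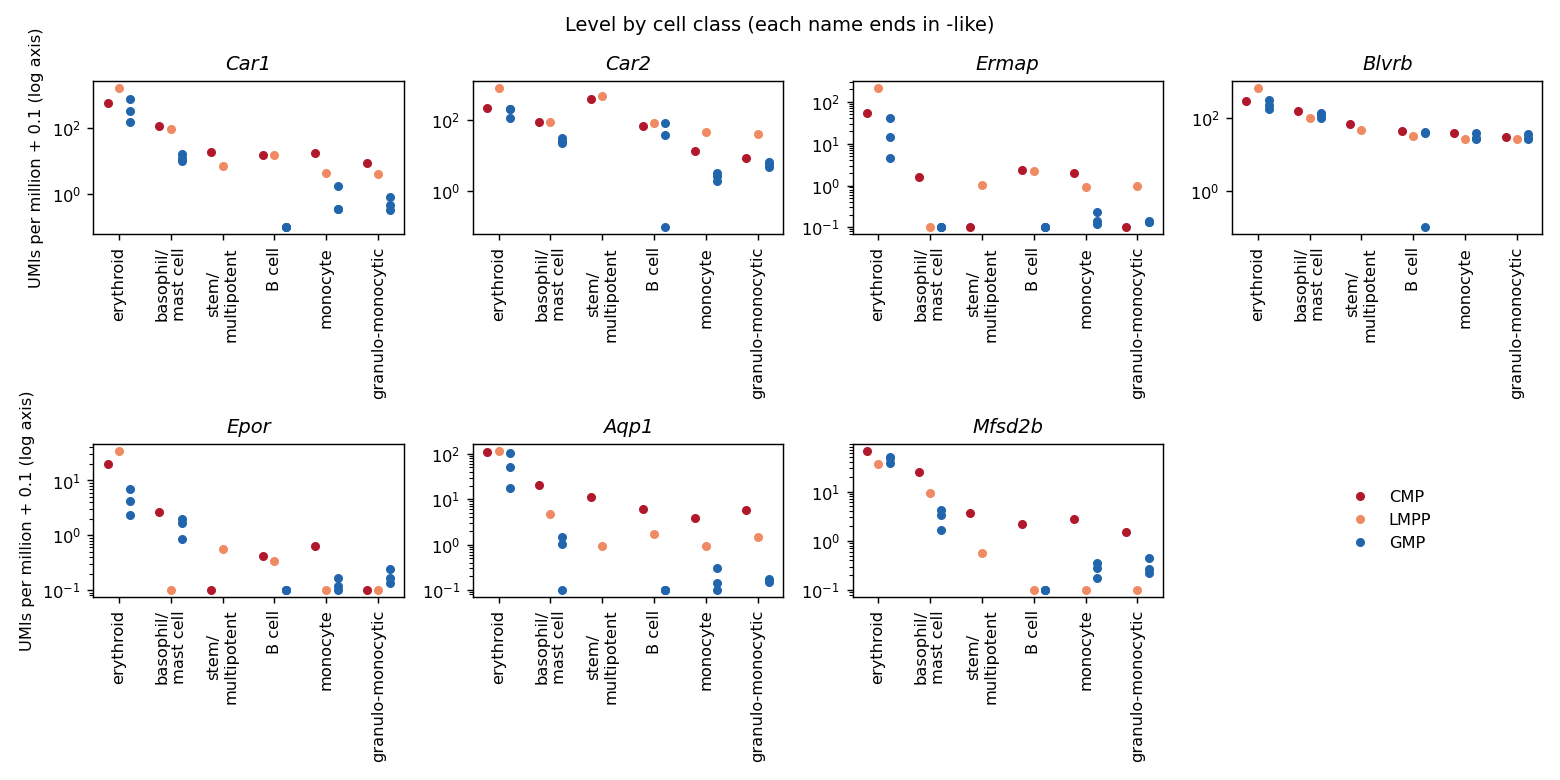
Level of the 7 genes in 6 cell classes, in CPM plus 0.1 on a log axis. Each point is the sum over the cells of 1 class in 1 library, and some points rest on few cells. The erythroid-like class is on top for every gene except Car2, which in CMP is higher in the stem and multipotent-like class.

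Outside that class, the basophil and mast cell-like cells had the next highest level of Blvrb among the named classes of CMP, 149 CPM in CMP and 101 CPM in LMPP, against 119 ± 20.5 CPM in GMP (SD, n = 3). Car1 was at 113 CPM in these cells of CMP and 91.8 CPM in those of LMPP, against 12.6 ± 3.08 CPM in those of GMP. Mfsd2b was at 25 CPM in these cells of CMP and 9.18 CPM in those of LMPP, against 2.94 ± 1.30 CPM in those of GMP, and Ermap had no UMI in those of LMPP or GMP. Ermap had 3 UMIs in those of CMP, and the LMPP class is of 21 cells. Car2 in the stem and multipotent-like class was at 367 CPM in CMP (53 cells) and 454 CPM in LMPP (5161 cells), a class with no GMP cell. In CMP that is above its 208 CPM in the erythroid-like class, and in LMPP below its 752 CPM there.

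Without the erythroid-like class, a comparison chosen after seeing the data, 6 of 7 genes still rose in CMP over GMP. Of the 19603 genes tested, 3417 did. Ermap had at most 0.0722 CPM in the GMP libraries without that class, and entered this test through CMP and LMPP alone. Car2 had a log2 fold change of 4.34, Aqp1 5.02, Ermap 4.08, Car1 3.95, Mfsd2b 3.04 and Epor 2.57, with edgeR adjusted p-values from 2.53e-05 to 0.00225. Blvrb had 0.29 ± 0.22 (SE, edgeR adjusted p = 0.353) and did not pass. In LMPP over GMP, 4 of 7 rose without that class, where 6240 of the 19603 genes tested did: Car2 (5.25), Ermap (3.32), Aqp1 (2.45) and Car1 (2.36). Epor had 1.02 (edgeR adjusted p = 0.0568), Mfsd2b -0.078 (edgeR adjusted p = 0.913) and Blvrb -0.20 (edgeR adjusted p = 0.452). The class was found from genes that move with the 7, so the drop in size is partly set by how it was chosen.

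Detection given Gata1 asks which genes are seen in cells that hold RNA of the lineage regulator. Of the thinned cells, 420 in CMP and 30 in LMPP had a Gata1 UMI, against 66, 93 and 36 in the GMP libraries. Car1 was seen in 31.4% of CMP cells with Gata1 (interval 27.0 to 36.1) and 11.7% of those without. Blvrb was seen in 35.7% with and 16.7% without, Aqp1 in 12.1% and 4.06%, Mfsd2b in 11.7% and 3.65%, Ermap in 5.00% and 1.59%, and Epor in 3.57% and 0.967%. For these 6 genes the 95% intervals with and without Gata1 did not overlap. For Car2, 28.3% of cells with Gata1 (24.1 to 32.9) and 27.2% of those without (26.1 to 28.3) had a UMI, so no difference was detectable at this depth. At 4000 UMIs per cell a small one was seen. Car2 was then in 42.3% of CMP cells with no Gata1 UMI (41.0 to 43.5) and 48.1% of those with 1 (44.0 to 52.3). It was in 56.0% of those with 2 (46.1 to 65.5) and 45.8% of the 24 cells with 3 or more (25.6 to 67.2). Over the 7 genes the median share in CMP cells with Gata1 was 12.1%, that of Aqp1.

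In LMPP, Car1 was seen in 40.0% of the 30 cells with Gata1 (22.7 to 59.4) and 2.24% of those without. Blvrb was seen in 36.7% and 9.39%, Ermap in 13.3% and 0.485%, and Aqp1 in 10.0% and 0.323%. Car2 ran the other way, with 40.0% (22.7 to 59.4) against 49.3%, within the counting error. Epor and Mfsd2b were in 0 of 30 thinned cells, where the exact interval reaches 11.6% and the limit of 3 counts 10%. Unthinned, the same 30 cells held 15 Epor and 23 Mfsd2b UMIs. In GMP, cells with Gata1 had Car1 in 5.01% ± 3.12 (SD, n = 3), Blvrb in 15.8% ± 1.92, Car2 in 4.87% ± 3.06 and Mfsd2b in 2.86% ± 1.39. Ermap was seen in none of the 195 such GMP cells after thinning.

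**Figure D3:**
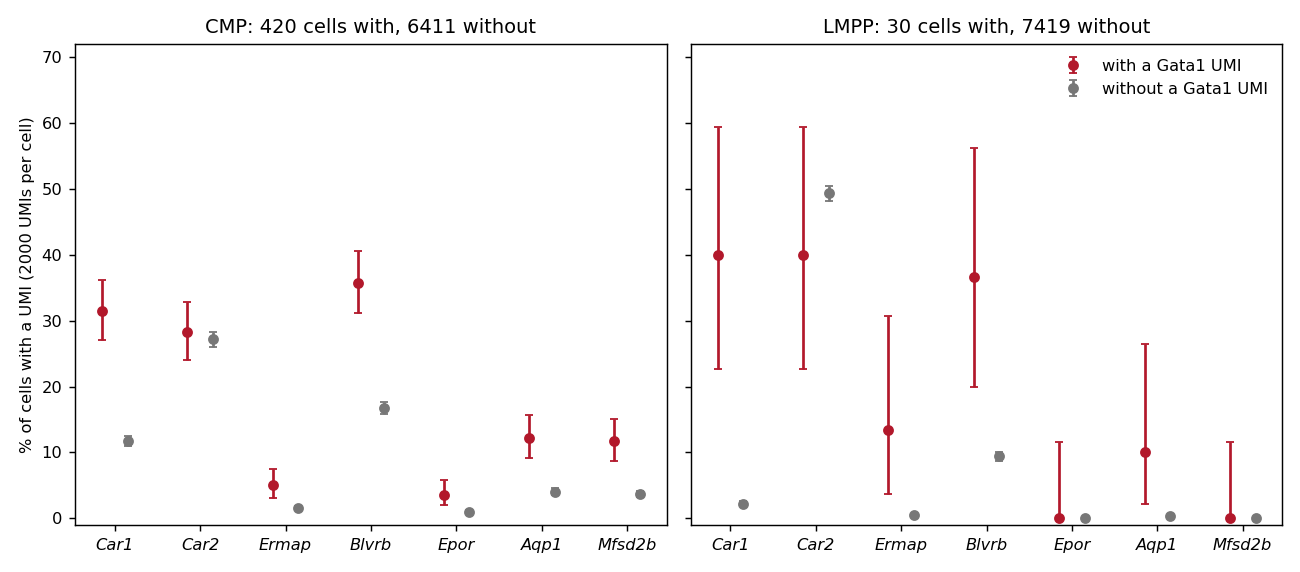
Share of cells with a UMI of each gene, in cells with and without a Gata1 UMI, after thinning to 2000 UMIs, in the CMP and LMPP libraries. Bars are exact 95% intervals of counting error. In CMP the share is higher with Gata1 for 6 genes and 28.3% against 27.2% for Car2.

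Cells with Gata1 were not of the same kind in each population. Of those in CMP, 81.4% were erythroid-like and 6.19% basophil and mast cell-like. Of those in LMPP, 66.7% were erythroid-like and 26.7% stem and multipotent-like. Of those in the 3 GMP libraries, 5.56% to 12.9% were erythroid-like and 52.8% to 60.6% basophil and mast cell-like. In sums over cells with Gata1, Car1 was at 460 CPM in CMP and 1275 CPM in LMPP, against 40.0 ± 11 CPM in GMP (SD, n = 3). Ermap was at 44.0 CPM in CMP and 182 CPM in LMPP, against 0 UMIs in the 3 GMP libraries together. With 3 counts over the GMP group as a floor, Ermap was at least 24.8-fold higher in CMP and at least 102-fold higher in LMPP.

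Among cells with Gata1, Car1, Car2, Blvrb and Mfsd2b rose in CMP over GMP by edgeR, where 3.57% of the 7695 genes tested did. Ermap, Epor and Aqp1 are not counted: they passed the low-count filter through the CMP and LMPP libraries alone. Ermap had no UMI in these GMP cells, and its call adds nothing to the floor given above. In these GMP cells Epor had 1, 4 and 0 UMIs per library (at most 4.67 CPM) and Aqp1 0, 7 and 4 (at most 12.2 CPM). Car1 had a log2 fold change of 3.48 ± 0.21 (SE, edgeR adjusted p = 3.03e-29), Car2 3.03 ± 0.23, Mfsd2b 2.13 ± 0.33 and Blvrb 1.68 ± 0.19. The edgeR adjusted p-values of these genes were all under 0.00376. Aqp1 had 3.64 ± 0.35 and Epor 2.13 ± 0.55, given as sizes only. In LMPP over GMP, Car1, Car2, Blvrb and Mfsd2b also rose, where 5.46% did. Car1 was at 4.90 ± 0.21, Car2 at 4.61 ± 0.23, Blvrb at 2.92 ± 0.20 and Mfsd2b at 1.29 ± 0.45 (edgeR adjusted p = 0.0426). This fit draws its spread almost wholly from the average over genes (116.5 prior degrees of freedom against 2 residual). Of the 7 genes other than Ermap, DESeq2 passed Car1, Car2 and Blvrb in CMP over GMP, not Epor, Aqp1 or Mfsd2b (DESeq2 adjusted p = 0.922, 0.837 and 0.128).

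Among cells without Gata1, 7 of 7 genes rose in CMP over GMP, where 18.7% of genes did, and 5 of 7 in LMPP over GMP, where 31.5% did. In CMP over GMP, Ermap had 6.50 ± 0.24 (log2, SE), Aqp1 6.32 ± 0.46, Car1 5.79 ± 0.53, Epor 4.96 ± 0.27, Mfsd2b 4.89 ± 0.47, Car2 4.31 ± 0.29 and Blvrb 1.38 ± 0.19, with edgeR adjusted p-values from 7.12e-06 to 0.00122. A cell without a Gata1 UMI at this depth may still hold Gata1 RNA. The unthinned counts of these CMP cells held 1753 Gata1 UMIs (23.2 CPM), against 182, 347 and 136 in GMP (1.2 to 2.94 CPM).

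Given Epor, the shares of the other 6 genes were also higher in CMP. Of 77 CMP cells with an Epor UMI, 39.0% had Car1 (28.0 to 50.8), 36.4% Blvrb, 20.8% Mfsd2b, 10.4% Aqp1 and 5.19% Ermap, against 12.6%, 17.7%, 3.95%, 4.49% and 1.76% of cells without Epor. Car2 was seen in 40.3% of them (29.2 to 52.1), against 27.1%. The intervals of Ermap (1.43 to 12.8) and Aqp1 (4.59 to 19.4) overlapped those of cells without Epor. Gata1 itself was seen in 19.5% (11.3 to 30.1), against 6.00%. The 8 LMPP cells with Epor are too few for shares to be compared.

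Combined, 6349 CMP cells had neither Gata1 nor Epor, 62 had Epor without Gata1, 405 had Gata1 without Epor and 15 had both. Car1 was seen in 11.4% of cells with neither, 37.1% of those with Epor alone, 30.9% of those with Gata1 alone and 46.7% of those with both. Mfsd2b was seen in 3.48%, 21.0%, 11.4% and 20% of the same sets, and Ermap in 1.58%, 3.23%, 4.69% and 13.3%. Car1 was thus seen with either marker alone, and the set with both is too small (15 cells) to order the rest.

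**Figure D4:**
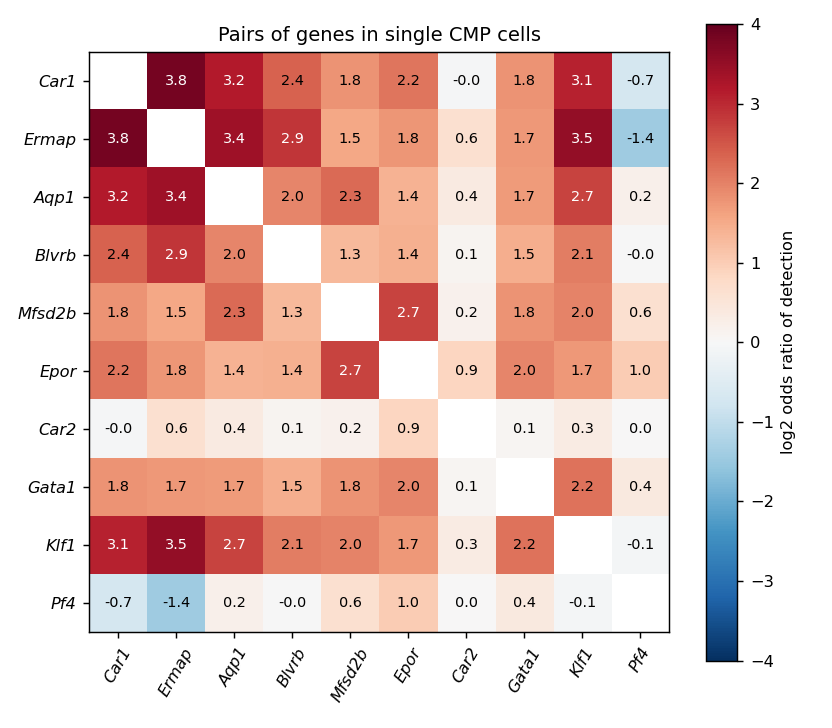
Log2 odds ratio of being detected in the same CMP cell for each pair of genes, after thinning to 2000 UMIs, over 6831 cells. Red means more often together and blue less often. Car1, Ermap and Aqp1 form the block of highest values with Klf1, the Car2 row runs from -0.04 to 0.87, and Pf4 is blue with Car1 and Ermap.

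Pairs of genes in single CMP cells differed in how far detection of 1 went with detection of the other. Among pairs of the 7, the highest log2 odds ratio of detection was that of Car1 with Ermap, at 3.82, followed by Ermap with Aqp1 at 3.41 and Car1 with Aqp1 at 3.17. Epor had its highest log2 odds ratio with Mfsd2b (2.70) and its next with Car1 (2.15). Car2 had values from -0.04, with Car1, to 0.87, with Epor. Cells with Pf4 had less Car1 and Ermap than cells without it (-0.70 and -1.42), and more Epor and Mfsd2b (1.0 and 0.63). These are descriptions over cells of 1 library, at 1 depth, without a test.

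Cells with Klf1 alone had higher shares of Car1, Aqp1, Ermap and Mfsd2b than cells with Pf4 alone, while Epor was not told apart. Of 247 CMP cells with Klf1 and no Pf4, 52.2% had Car1, 20.2% Aqp1, 13% Ermap, 13% Mfsd2b and 3.64% Epor. Of 835 with Pf4 and no Klf1, 7.19% had Car1, 4.31% Aqp1, 0.120% Ermap, 5.51% Mfsd2b and 2.04% Epor. For Epor, the intervals over all CMP cells with Klf1 (1.47% to 5.99%) and all with Pf4 (1.14% to 3.11%) overlapped. In both sets, Mfsd2b and Epor were above the 0.791% and 0.198% of the B cell-like cells. Ermap was seen in 1 of the 835 cells with Pf4 alone.

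The order in which the genes appear was read from a staging count, the number of 19 other erythroid genes (such as Klf1, Tfr2 and Rhd, with Gata1 left out) seen in a cell. For each gene, the count at which its share reached 50% of the way from its value at 0 to its value in the top bin was interpolated. No CMP cell reached the top bin of 7 genes at 2000 UMIs, so the values below use 4000 UMIs per cell and a top bin of 5 or more, a setting chosen after seeing the data. The bins for 0, 1, 2, 3, 4 and 5 or more held 3258, 1805, 784, 389, 204 and 120 CMP cells. One of the 19, Cited4, was higher in GMP (19.3 ± 1.19 CPM) than in CMP (3.13 CPM), and the count is not read in GMP.

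Car1 was seen in 7.15% of CMP cells with a count of 0, 31.0% at 2 and 78.3% at 5 or more (69.9 to 85.3). Blvrb was seen in 17.8%, 41.8% and 81.7% of these bins, Aqp1 in 2.0%, 14.3% and 50%, and Ermap in 0.583%, 2.81% and 31.7% (23.5 to 40.8). Mfsd2b was seen in 1.81%, 13.6% and 23.3%, and levelled off after its 26.0% at 4. Epor was seen in 0.460%, 3.44% and 8.33% (4.07 to 14.8), and stood at 9.0% at 3. Car2 was seen in 37.7%, 47.7% and 54.2%, so it was already frequent where no staging gene was seen.

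The 50% point came at a count of 0.78 for Car2, 1.85 for Mfsd2b, 2.17 for Epor, 2.35 for Blvrb, 2.56 for Car1, 3.04 for Aqp1 and 3.87 for Ermap. Ermap was thus last and Car2, whose share moved little over the bins, first, with the order of the others not read. The place of Car2 was not stable: with a top bin of 7 at 4000 UMIs its point came at 5.08, after all the others. In CMP, Ermap was last of the 6 genes other than Car2 also at 4000 UMIs with a top bin of 7 and with unthinned counts. The same held when Gata1 UMIs at 4000 UMIs per cell took the place of the staging count. At 2000 UMIs with a top bin of 5 or more (24 cells), Ermap was not last. In LMPP at 4000 UMIs with a top bin of 5 or more it was not last either, with a 50% point of 3.57 against 4.82 for Aqp1. Nor was it last in LMPP with a top bin of 7 at 4000 UMIs (3.52 against 4.28 for Aqp1) or with unthinned counts (8.08 against 8.87 for Epor). At the planned 2000 UMIs with a top bin of 7, 4 genes had a point in LMPP. Ermap was last of them at 5.25, after Car1 at 2.72, Blvrb at 3.19 and Car2 at 3.97. That top bin held 1 cell, which sets all 4 points, so no order is read from them. At 4000 UMIs per cell the upper LMPP bins held 39, 13 and 28 cells. In the top one Car1 was seen in 92.9%, Ermap in 78.6% and Aqp1 in 50%, and Mfsd2b in 7.14%.

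**Figure D5:**
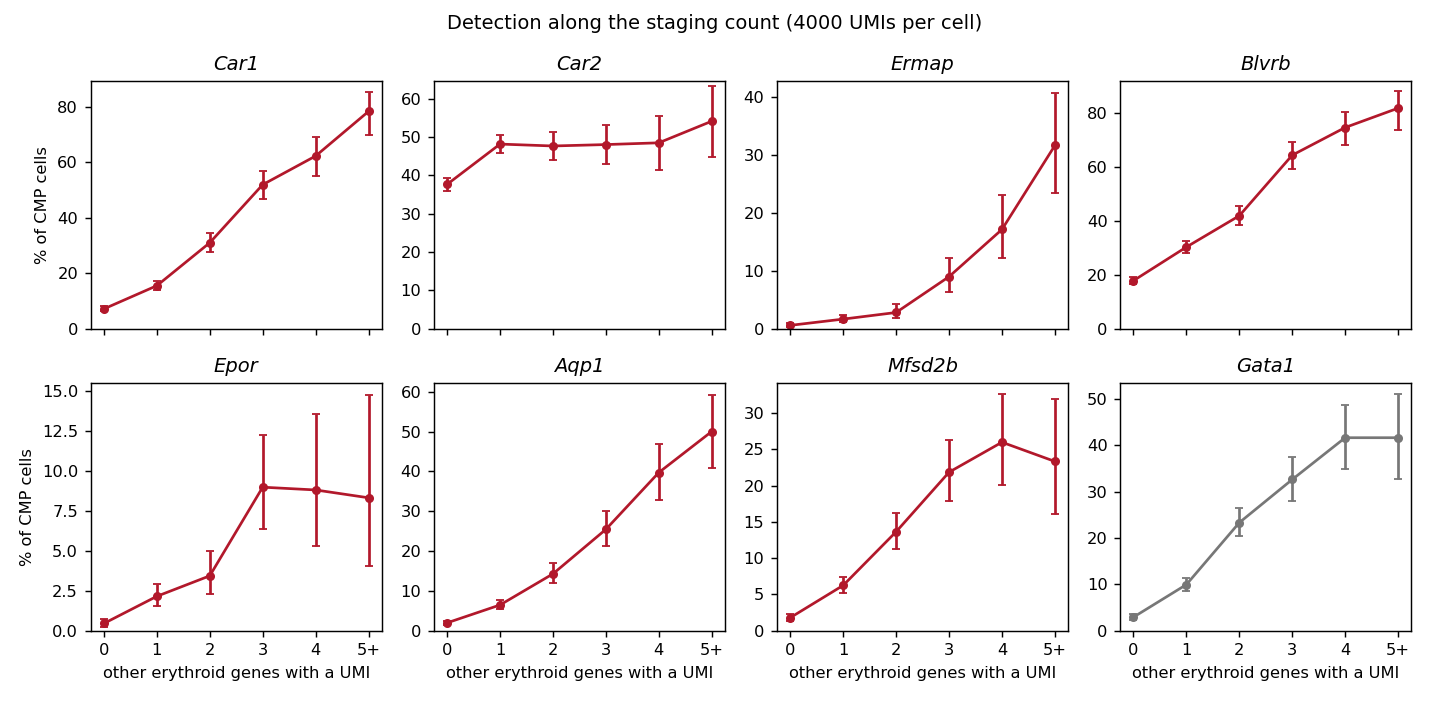
Share of CMP cells with a UMI of each gene by the number of other erythroid genes seen in the cell, at 4000 UMIs per cell. Bars are exact 95% intervals, and the vertical axes differ. Car2 starts at 37.7%, Mfsd2b and Epor flatten from counts of 3 or 4 onwards, and Ermap stays under 3% up to a count of 2.

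Cells with several Gata1 UMIs showed higher Car1, Ermap and Epor levels in LMPP than in CMP, and a lower Mfsd2b level. Unthinned, 323 CMP cells and 33 LMPP cells had 3 or more Gata1 UMIs, with medians of 17506 and 41548 UMIs per cell. Ermap was at 114 CPM in these CMP cells and 339 CPM in these LMPP cells, and Car1 at 764 and 1973 CPM. Epor was at 25.7 CPM in CMP and 45.5 CPM in LMPP, and Mfsd2b at 69.8 CPM in CMP and 35.9 CPM in LMPP. The depth of the LMPP cells is over 4 times the median of their library, and its part in these values was not tested.

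Over 6880 CMP cells, the genes most like the mean of the 7 were Klf1 (Pearson r = 0.586, on log2 of UMIs per 10000 plus 1), Trib2 (0.571), Tnfaip2 (0.570), Optn (0.539) and Ces2g (0.524), followed by Vamp5, Apoe, Abcb4, Ugcg and Samd14 (0.520 to 0.458), out of 12879 genes compared. Gata1 ranked 11 (0.453). For Car1 the nearest were Trib2, Tnfaip2 and Klf1, and for Aqp1 Trib2, Klf1 and Tnfaip2. Ermap was most like Slc25a21, Klf1 and Ces2g, Blvrb most like Apoe, Vamp5 and Tnfaip2, and Mfsd2b most like Apoe, Optn and Samd14. Car2 stood apart, being most like Hlf (0.397), a stem cell transcription factor gene, Ctla2a (0.391) and Mecom (0.296), another stem cell regulator gene. Epor had no r above 0.246 (Klf1) with a gene outside the 7, at its few UMIs. The points share a library and, in part, depth.

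For the gene lists that follow, the share of all genes tested that rose is 19.0% in CMP over GMP and 31.6% in LMPP over GMP. Of 10 genes of the GATA-1 complex, 10 rose in CMP over GMP and none fell, with a median log2 change of 1.76 beside 0.04 over all genes. Gfi1b, a repressor of the erythroid and megakaryocytic lineages, was at 45.6 CPM in CMP and 10.1 CPM in LMPP, against 1.67 ± 0.517 CPM in GMP (SD, n = 3; log2 change 4.44 in CMP over GMP). Klf1 was at 25.1 CPM in CMP and 6.45 CPM in LMPP, against 1.24 ± 0.631 CPM in GMP (4.01). Lmo2, a bridging subunit, was at 247 CPM in CMP and 461 CPM in LMPP, against 96.0 ± 16.7 CPM in GMP, and the corepressor gene Cbfa2t3 changed by 1.17. In LMPP over GMP 8 of 10 rose and 2 did not pass. Gata1 was 1 of the 2, at -0.24 ± 0.40 (SE, edgeR adjusted p = 0.629), and its sign turns with total UMI scaling (0.38).

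Of 8 genes of erythropoietin receptor signalling, 7 rose in CMP over GMP. Socs2 and Cish, feedback inhibitors induced by STAT5, changed by 2.73 and 1.80 on the log2 scale, and the kinase gene Pim1 by 1.64. Lyn had -0.01 (edgeR adjusted p = 0.955), or 0.30 under total UMI scaling. In LMPP over GMP 3 of 8 rose, near the share of all genes. Socs2 was at 7.90 CPM in CMP and 14.5 CPM in LMPP, against 0.951 ± 0.245 CPM in GMP.

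Of 13 red cell membrane genes tested (14 listed), 12 rose in CMP over GMP, with a median log2 change of 3.32, and 8 rose and 1 fell in LMPP over GMP. Among those tested, Add2, Epb42, Rhag and Sptb had at most 12 UMIs in any GMP library. They entered the test through the CMP and LMPP libraries alone, so these counts overstate the support. Tspo2 was at 7.66 CPM in CMP and 2.37 CPM in LMPP, against 0.0777 ± 0.093 CPM in GMP, and Add2, an adducin subunit gene, changed by 5.08 in CMP over GMP. Icam4, an adhesion gene of erythroblasts, rose in CMP (1.51) and fell in LMPP (-1.01, edgeR adjusted p = 0.00594) relative to GMP, the fall not passing under total UMI scaling (-0.39). Epb41, the gene of protein 4.1, had 0.21 in CMP over GMP (edgeR adjusted p = 0.281). Of 11 heme synthesis and iron genes tested (12 listed), 2 rose (Alad and Tfr2), 1 fell (Slc25a37, -0.77, or -0.47 and not passing under total UMI scaling) and 8 did not pass in CMP over GMP. The 2 of 11 that rose are near the share of all genes. None rose and 5 fell in LMPP over GMP, among them Alad (-1.88), which also fell under total UMI scaling (-1.26).

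Globin RNA was scarce. Of 4 globin genes, Hbb-bs and Hba-a1 rose in CMP over GMP and in LMPP over GMP. Hbb-bt and Hba-a2 are not counted. With at most 1 and 6 UMIs in any GMP library, they entered the test through the CMP and LMPP libraries alone. Hbb-bs was at 1.77 CPM in CMP and 5.79 CPM in LMPP, against 0.176 ± 0.0699 CPM in GMP, and Hba-a1 at 0.421 CPM in CMP and 2.66 CPM in LMPP, against 0.0683 ± 0.0338 CPM in GMP. The 6 markers of mature red cells summed to 2.56 CPM in CMP and 9.46 CPM in LMPP, against 0.175 to 0.378 CPM in GMP. The 4 α- and β-globin genes are near-identical pairs, so the division of reads within a pair is uncertain. The part of free RNA from red cells in these values was not tested.

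Of 9 other carbonic anhydrase genes tested (14 listed), 2 rose in CMP over GMP, Car5a and Car5b, both under 1 CPM in CMP, a count near the share of all genes. Car9 and Car13 had -0.01 and 0.30 (edgeR adjusted p = 0.958 and 0.268). Of 8 other aquaporin genes listed, 2 were tested and both rose, Aqp9 (log2 change 4.59) and Aqp11 (0.81). None of 3 heme degradation genes other than Blvrb passed, with Hmox2 at -0.20 (0.11 under total UMI scaling) and Blvra at -0.13 (edgeR adjusted p = 0.385 and 0.568). Of 8 genes tested for sphingosine 1-phosphate handling (10 listed), 4 rose, 2 fell and 2 did not pass in CMP over GMP. Sphk1, the kinase that makes this lipid, was at 1.67 CPM in CMP and 1.99 CPM in LMPP, against 0.0379 ± 0.0327 CPM in GMP. With 2, 9 and 2 UMIs in the GMP libraries, it entered the test through the CMP and LMPP libraries alone. The exporter gene Spns2 was at 53.4 CPM in CMP and 41.3 CPM in LMPP, against 5.72 ± 0.989 CPM in GMP, and the receptor gene S1pr1 at 13.1 CPM in CMP and 15.7 CPM in LMPP, against 0.514 ± 0.219 CPM in GMP.

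As sums, megakaryocyte markers were highest in CMP, and basophil and mast cell markers were highest in GMP. The 7 megakaryocyte markers, all detected in every library, summed to 578 CPM in CMP and 186 CPM in LMPP, against 21.1 to 52.7 CPM in GMP. Much of the CMP sum was Pf4, at 415 CPM in CMP and 60.1 CPM in LMPP. Another of the markers, Itga2b, was at 33.8 CPM in CMP and 6.69 CPM in LMPP, against 5.66 ± 1.40 CPM in GMP (SD, n = 3). The 9 basophil and mast cell markers summed to 171 CPM in CMP and 53.3 CPM in LMPP, against 388 to 452 CPM in GMP. Pf4 rose by 4.20 ± 0.62 in CMP over GMP (log2, SE, edgeR adjusted p = 0.00179). The part of the megakaryocyte program in the levels of Mfsd2b and Epor was not tested.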

How the data were processed

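Each deposited matrix gives whole-number counts, 1 UMI count for every gene in every barcode. Per the submitters' processing notes, Cell Ranger 3.1.0, Seurat 3.1.1 and the mm10 build were used, whereas the file headers name Cell Ranger 6.1.1. The barcode filter is not given in the sources used here. All 55450 gene IDs matched GENCODE M21. Barcodes under 500 genes or 1000 UMIs, or over 10% mitochondrial, were removed, as were simulated-doublet calls (0.8% per 1000 barcodes).

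Library sums of UMIs went into edgeR 4.0.16 (quasi-likelihood, TMM, filterByExpr, prior count 2, Benjamini-Hochberg at 0.05). R 4.3.3, limma 3.58.1, DESeq2 1.42.0, Python 3.11.15 and scanpy 1.11.5 were used. The edgeR p-values rest on the spread of the 3 GMP libraries (2 residual degrees of freedom), drawn toward the average over genes. That average weighs as 5.763 prior degrees of freedom in all cells and 116.5 in cells with Gata1. On simulated counts for CMP over GMP in all cells (19735 genes), 62.1% of 2-fold and 97.9% of 4-fold changes were recovered. Cells were thinned at random to 2000 UMIs, and intervals are Clopper-Pearson, for counting error only. Clusters came from 2000 variable genes less the 7, 30 components, 20 neighbours and Leiden resolution 1. A name needed 3 markers raised 1.5-fold at 20 CPM and 1 among the 10 leading genes. That last condition was set after the clusters were seen.

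The genes and lists were chosen with earlier results of these data known. Named genes were the 7, Gata1, Klf1 and Pf4, the genes most like them by r in CMP cells, and of each list the 2 largest changes and the 2 highest levels. Flt3, Fcgr3, Kit, Cd34, Itga2b and Cited4 were named after their values were seen. The alternatives were other scalings, filters, barcodes, tools, gates, thinning depths and resolutions, and leaving out each GMP replicate.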

Additional observations from a re-analysis of the deposited data

How the results depend on the processing

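Counted as pairs of a gene and an alternative, the 7 genes in CMP over GMP kept their direction and call in 76 of 77 pairs in all cells, 60 of 63 in cells with Gata1 and 63 of 63 in cells without it. With DESeq2, 4 genes passed in cells with Gata1 instead of 7. Counts of members in cells with Gata1 here include Ermap, Epor and Aqp1, which passed the low-count filter there through the CMP and LMPP libraries alone. In LMPP over GMP, 68 of 77 pairs were as in the report. Without the erythroid-like class, an alternative added after seeing the data, Blvrb and Mfsd2b turned to -0.20 and -0.078, neither called before or after. Leaving out each GMP replicate gave 7 in CMP over GMP, in all cells and both gates, and 6 in LMPP over GMP. The median share of CMP cells with Gata1 that held a gene was 12.1%, and 7.45%, 23.2%, 43.7% and 15.8% at 1000 UMIs, 4000 UMIs, no thinning and with doublet calls kept. A deeper cell holds more UMIs in which a gene can be found, and for the doublet calls the cause was not tested. Car1 in erythroid-like CMP cells was at 554 CPM, and at 573 and 745 CPM at Leiden resolutions 0.5 and 2, and the cause was not tested. At 2000 UMIs with a top bin of 5 or more, 2 of the 6 genes other than Ermap came before it, with Car2 after it, whereas 5 did beside Car2 at 4000 UMIs, with 24 cells in that bin. The planned top bin of 7 at 2000 or 1000 UMIs gave no value in CMP, and doublet calls kept gave one for Car2 and Ermap only. Scaling by total UMIs moved the median of all genes in CMP over GMP from 0.04 to 0.34 and the split from 3747 higher and 2688 lower to 5965 and 1445, and in LMPP over GMP from 6230 and 5096 to 10260 and 2167. In cells with Gata1, 660 genes passed in all, and 151 with DESeq2, 345 without GMP replicate 2, 991 with the gate at 4000 UMIs and 2038 with the gate on unthinned counts. Past 4-fold in CMP over LMPP, TMM scaling gave 3 genes instead of 2. No paired analysis was possible because CMP and LMPP have 1 library each and so share fewer than 2 replicate numbers with GMP. Depth limits Epor and Ermap most, with 12 to 22 and 9 to 17 UMIs per GMP library.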
